A study of Mus musculus with 53 samples.

Results

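Gene expression in the cortex of wild-type mice was compared with that in brainstem, cerebellum and striatum. The members were all wild-type libraries of the series: 30 of 53 libraries, with 7 from cortex and 23 from the other regions (8 brainstem, 7 cerebellum and 8 striatum). Mouse 7267059 gave no cortex library used here and mouse 7267058 no cerebellum library, so that 6 mice had all 4 regions. The libraries came from 8 male wild-type C57BL/6 mice that were 75 to 77 weeks old, had aged naturally, were not treated and had earlier performed beam walk and rotarod tests. Each library is the poly-A RNA of 1 region of 1 mouse, dissected by hand, and is named here by its region and mouse number. The other 23 libraries of the series came from 6 MJD84.2 mice, a model of spinocerebellar ataxia type 3 (SCA3) in which a human ATXN3 transgene with a lengthened CAG repeat is driven by the promoter of the human gene. The SCA3 mice were up to 77 weeks old, and some of them were younger than the youngest wild-type mice, which were 75 weeks old. The SCA3 libraries took no part in the comparison and are used only near the end, to read the same difference in other animals.

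The cerebral cortex is built mainly of glutamatergic projection neurons arranged in layers, with GABAergic interneurons among them. Projection neurons load their synaptic vesicles with the transporter encoded by Slc17a7 and are specified by transcription factors such as those of the NEUROD family, whereas the striatum consists mostly of GABAergic projection neurons that carry dopamine receptors. The cerebellum is dominated by granule cells, and the brainstem is rich in myelinated tracts and in glutamatergic neurons that use Slc17a6.

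Library totals were 35.5 to 76.7 M counts in cortex and 31.7 to 72.4 M in the other regions, and the RNA integrity number (RIN) was 7.7 to 8 in cortex and 6 to 9 elsewhere. Within mice, cortex RIN was 0.3 ± 0.459 higher than the mean of the other regions (SD, n = 7 mice, higher in 5; exact two-sided sign-flip permutation p = 0.172, adjusted p = 0.344, smallest possible 0.0156). Cortex totals differed by -3.55 ± 11 M (SD, n = 7, higher in 3; exact permutation p = 0.344, adjusted p = 0.344). P-values below measure the spread between samples of these mice. In bulk tissue, fewer cells of a type and less RNA per cell cannot be told apart.

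The labels were first checked against markers of the tissue and of its neighbours. Levels are given in CPM, read counts brought to a common library total that was adjusted by TMM (trimmed mean of M-values) scaling. Cortex libraries held Slc17a7 at 357, 1208 and 1629 CPM (lowest, median and highest library), together with the interneuron peptide Sst at 144, 167 and 205 CPM. The granule cell gene Cbln3 was at most 0.885 CPM in cortex and 890 to 1672 CPM in cerebellum. Of the cortical excitatory markers, Tbr1 and Emx1 were among those not analysed here.

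Genes of striatal projection neurons were present in the cortex libraries. Their 15 analysed markers summed to 1152 to 4616 CPM in cortex, against 3141 to 12873 in striatum, 520 to 755 in brainstem and 425 to 505 in cerebellum. The dopamine receptor gene Drd1 measured 25.2, 72.5 and 121 CPM in cortex, and at most 4.01 CPM in brainstem and 1.1 CPM in cerebellum. By edgeR's test at a false discovery rate below 0.05, all 15 markers were higher in cortex than in the mean of the other regions, and 12 were lower in cortex than in striatum (13 and 12 without the 3 libraries named next). Of all genes 30.2% were higher than the mean and 16.2% lower than striatum. Whether striatal tissue in the dissected cortex contributed to differences from brainstem and cerebellum was not tested.

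A group of 3 libraries was set apart after the data were seen, by markers of cortical or cerebellar neurons. The striatum library of mouse 9083375 held Slc17a7 at 597 CPM, where the next striatum library had 208. The cortex library of mouse 9083371 had the lowest Slc17a7 (357 CPM) and the lowest Neurod6 (5.69 CPM) of the cortex libraries. The brainstem library of mouse 9083373 held Cbln3 at 38.1 CPM, against a brainstem median of 2.71. As 2 of the 3 were chosen by genes of cortical neurons, leaving them out must widen the difference of such genes, and values without the 3 libraries are given below as descriptions. Thalamus markers summed to 2861 CPM in the striatum library of mouse 7267059 (striatum median 427), which with striatum of mouse 7267058 was left out in a separate alternative, and the cortex library of mouse 7267055 held 995 CPM of the choroid plexus gene Ttr (cortex median 19.3).

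**Figure D1:**
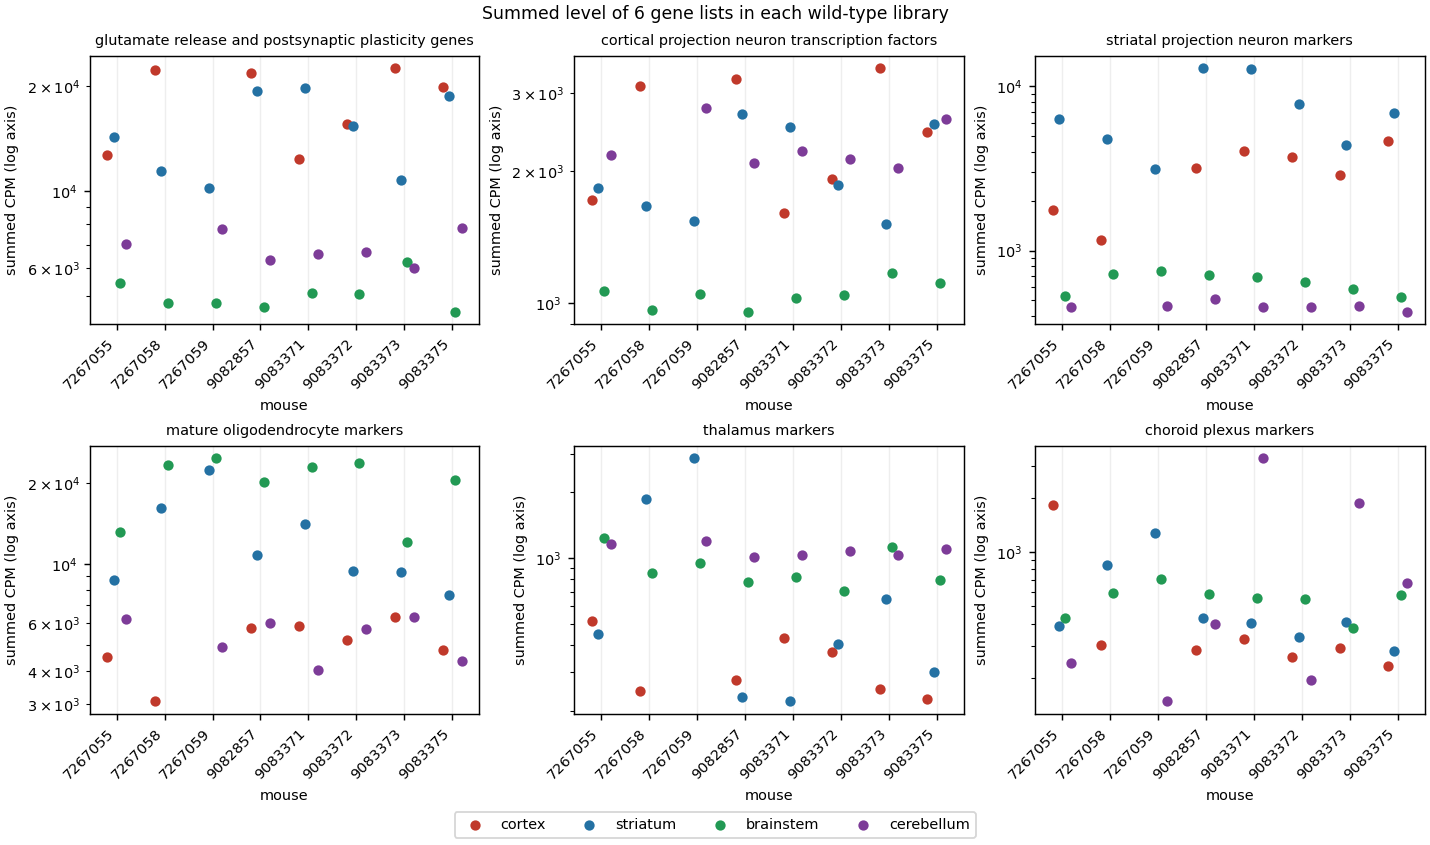
Summed CPM (log axis) of 6 gene lists in each wild-type library, by mouse on the horizontal axis and by region in colour. Striatal projection neuron markers in cortex (1152 to 4616) lie above those of brainstem and cerebellum and reach into the striatum range, and glutamate release genes are low in the cortex libraries of mice 9083371 and 7267055.

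To ask which genes set the cortex apart, cortex was tested against the mean of the other 3 regions and against each region in turn, with the mouse as a block. Differences are log2 of cortex over the other region, so that 1 stands for a 2-fold difference, and are given with their standard error (SE). Genes were called at a false discovery rate (FDR) below 0.05 by edgeR's quasi-likelihood test with Benjamini-Hochberg adjustment over all 12372 genes. Against the mean of the other regions, 3741 genes (30.2%) were higher in cortex and 3568 (28.8%) were lower. With library totals in place of TMM scaling the share of higher genes among the called ones fell from 51.2% to 38.6%. Of all called genes, 516 were higher and 225 lower by at least 2-fold, and the median difference over all genes was 0.003.

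The striatum was the region closest to cortex. Against striatum 2094 genes (16.9%) were higher in cortex and 2001 (16.2%) lower, against brainstem 4282 (34.6%) and 3874 (31.3%), and against cerebellum 4375 (35.4%) and 4251 (34.4%). At least 2-fold differences were called for 369 genes against striatum, 1210 against brainstem and 1927 against cerebellum. The median size of the difference over all genes was 0.142 log2 units against striatum, 0.276 against brainstem and 0.335 against cerebellum. Without scaling factors the share of higher genes against cerebellum moved from 50.7% to 39.5%.

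A difference from the mean was often carried by some of the regions only. Of the 3741 genes higher in cortex than the mean, 747 (20%) were also called higher against each of the 3 regions, and 270 (7.22%) were called lower against at least 1 of them. Of the 3568 lower genes, 538 (15.1%) were called lower against each region and 284 (7.96%) were called higher against at least 1. The description below therefore turns on genes that were called in the same direction against each region with at least a 2-fold difference. There were 52 such genes highest in cortex (0.42% of all genes) and 14 lowest in cortex (0.113%).

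These counts moved with the libraries used. Without mouse 7267058 they were 34 and 6. The cortex library of that mouse had the highest sum of hippocampus markers, and its striatum library was high in thalamus markers. Without the 3 libraries that stood apart they were 78 and 22, the choice of libraries favouring a larger number of highest genes. Without striatum of mice 7267058 and 7267059, whose thalamus markers exceeded 2 times the striatum median, they were 37 and 7. Requiring a RIN of at least 7 gave 35 and 7. Most mice fall into 2 number series, and the 4 mice 9083371, 9083372, 9083373 and 9083375 alone gave 10 and 3 genes. The 3 mice 7267055, 7267058 and 7267059 alone gave 22 and 6, of which 14 and 0 were among the genes counted here. With 2 cortex libraries in that series, Neurod6, Cck, Nptxr, Wnt3, Klk6, Unc13c, Rorb, Cux2, Sst, Pvalb, Arc, Mbp and Gfap kept their direction from the mean and did not pass the test. Over 23 alternatives 4 of the 52 genes kept their class in each (Scube1, Pdzrn3, Mas1 and Ttc9b), and 0 of the 14 did, Mob3b, St18 and Vwa7 keeping it in 22.

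In 47 genes (0.38%) every cortex library lay above every other library, and in 77 (0.622%) every cortex library lay below. Of the 52 genes, 7 had this complete separation (Scube1, Pdzrn3, Rprm, Tmem132d, Sstr2, Npy1r and Nwd2). Of the 14, it held for 4 (Mob3b, St18, Ebf1 and 1700047M11Rik). The region closest in level was striatum for 31 of the 52 genes, brainstem for 12 and cerebellum for 9. For the 14 lowest genes it was striatum in 12 and cerebellum in 2. The smallest difference inside the limit was 1.01 for Enc1 against striatum, and -1.001 for 1700047M11Rik against cerebellum.

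**Figure D2:**
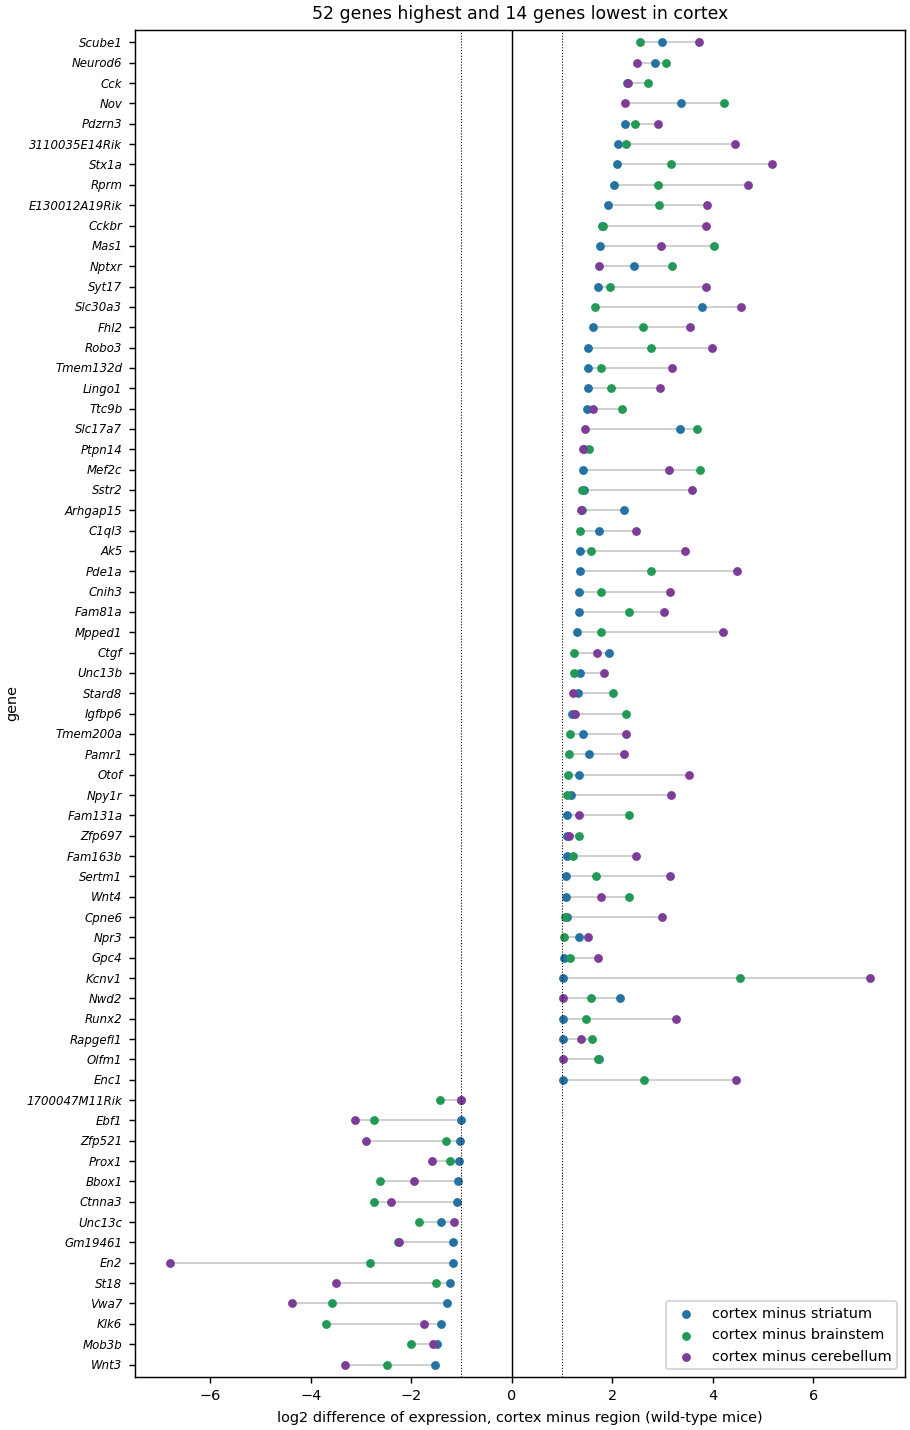
Log2 difference of cortex minus striatum, brainstem and cerebellum (coloured points) for the 52 genes highest and the 14 genes lowest in cortex, 1 gene per line, with dotted lines at the 2-fold limit. Cortex minus striatum is the smallest difference for 31 of the 52 genes, and cortex minus cerebellum reaches 7.12 for Kcnv1 and -6.80 for En2.

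Among the genes highest in cortex, the first to be described are a transcription factor and peptide genes of cortical neurons. The 250 bases before the transcription start of Neurod6 and Cck are shown because Neurod6 encodes a basic helix-loop-helix factor of projection neurons, and factors of this family bind E-boxes such as CAGATG. They are given 5′ to 3′ in gene direction from RefSeq on GRCm38.p6. Capitals mark the letters CAGATG or their reverse CATCTG.
Neurod6, chr6:55681264-55681513, minus strand: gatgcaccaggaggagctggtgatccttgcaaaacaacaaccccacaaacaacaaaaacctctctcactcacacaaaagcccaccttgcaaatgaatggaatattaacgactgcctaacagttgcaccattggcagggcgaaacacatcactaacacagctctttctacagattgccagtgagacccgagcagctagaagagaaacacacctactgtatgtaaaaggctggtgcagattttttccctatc
Cck, chr9:121495695-121495944, minus strand: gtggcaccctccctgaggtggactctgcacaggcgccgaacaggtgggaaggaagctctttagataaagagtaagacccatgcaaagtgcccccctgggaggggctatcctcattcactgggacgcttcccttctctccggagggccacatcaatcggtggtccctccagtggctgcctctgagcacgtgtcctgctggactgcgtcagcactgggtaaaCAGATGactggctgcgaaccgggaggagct

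The Cck window held CAGATG from position -30, counted from the start site at 1, and the Neurod6 window held none. Both strands were searched over windows of 250 bases before to 50 bases after each listed start. CAGATG was found for 6 of the 39 highest genes with a listed start (15.4%), for 3 of 11 lowest genes (27.3%) and for 1334 of all 9870 genes with one (13.5%). The cyclic AMP response element TGACGTCA, which reads the same on both strands, was found for 1 of the 39 (2.56%, Sstr2), for 0 of the 11 and for 359 of the 9870 (3.64%). A match of letters does not show that a factor binds there.

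Neurod6 (chr6:55677818-55681263, minus strand) measured 5.69, 43.5 and 88.2 CPM in cortex. It measured 0.248, 3.39 and 49 CPM in striatum, 1.99, 5.08 and 8.27 in brainstem, and 5.82, 7.96 and 9.47 in cerebellum. Most cortex libraries were above all brainstem and cerebellum libraries, but that of mouse 9083371 fell among them, and the groups overlapped. The difference from the mean of the other regions was 2.80 (SE 0.601, FDR 0.00043), and 3.46 without the 3 libraries that stood apart, which were chosen partly by this gene, so that the increase was fixed by the choice. In the 4 mice of the number series of 9083371 it was 1.91 and did not pass edgeR's test (adjusted p = 0.0841), nor did the 3.46 in the series of 7267055 (adjusted p = 0.052).

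Cck (chr9:121489824-121495694, minus strand) encodes cholecystokinin, a neuropeptide made by cortical projection neurons and interneurons. It measured 35.5, 161 and 214 CPM in cortex, and 4.69, 21.1 and 93.7 CPM in striatum. All cortex libraries exceeded the highest brainstem (26.7 CPM) and cerebellum library (29.9 CPM), and the overlap was with striatum. Against the mean it differed by 2.44 (SE 0.376, FDR 1.27e-05), and 3.00 without the 3 libraries that stood apart, chosen by other genes of cortical neurons. In the mice of the series of 7267055 the 2.46 did not pass edgeR's test (adjusted p = 0.0722). Its receptor Cckbr (chr7:105425676-105436339, plus strand) was also highest in cortex, at 24.5, 53.6 and 79.3 CPM. Only the striatum library of mouse 9083375 reached into the cortex range (45.2 CPM, the next striatum library 13.7). The difference was 2.50 (SE 0.304, FDR 6.98e-07).

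Scube1 (chr15:83602583-83725051, minus strand) encodes a secreted and cell surface glycoprotein with EGF-like and CUB domains, and had the largest difference from its nearest region of the 52 genes. It measured 46.2, 80.1 and 105 CPM in cortex. Its values were 5.24, 7.12 and 34.8 CPM in striatum, 6.31, 12.9 and 16.7 in brainstem, and 4.8, 5.37 and 6.17 in cerebellum. No library of another region reached the lowest cortex library. The differences were 2.98 from striatum (SE 0.282), 2.55 from brainstem (SE 0.278) and 3.72 from cerebellum (SE 0.307), and 3.08 from the mean (SE 0.207, FDR 2.89e-10).

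Pdzrn3 (chr6:101149607-101377897, minus strand), a RING-type ubiquitin ligase with PDZ domains, was likewise separated. It measured 18.8, 39.5 and 42.1 CPM in cortex, and no library of another region exceeded 16 CPM. Its difference from the mean was 2.54 (SE 0.194, FDR 1.65e-09). Rprm (chr2:54084093-54085552, minus strand), which encodes reprimo and marks neurons of layer 6, measured 60.2, 65.2 and 110 CPM in cortex and at most 42.6 CPM elsewhere. Its cerebellum values ran from 0.517 to 4.64 CPM. Its log2 difference from the mean was 3.21 (SE 0.285, FDR 1.14e-08), the largest part of it against cerebellum (4.70, against 2.03 for striatum).

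Stx1a (chr5:135023482-135051100, plus strand) encodes syntaxin 1A, a SNARE protein of the presynaptic membrane. It measured 91.9, 236 and 365 CPM in cortex, 18.2, 37.6 and 143 CPM in striatum, and 1.72, 7.36 and 10.1 CPM in cerebellum. Only the striatum library of mouse 9083375 reached into the cortex range. The difference from the mean was 3.48 (SE 0.291, FDR 5.99e-09), the largest of the 12 genes named by size. In cerebellum, Stx1a, Rprm and Cckbr were each lowest in the library of mouse 9083375 (1.72, 0.517 and 0.831 CPM).

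Nov (named Ccn3 in RefSeq; chr15:54745910-54753762, plus strand), a secreted matricellular protein, measured 36.8, 70 and 294 CPM in cortex and 2.87, 6.01 and 72.9 CPM in striatum. Outside cortex its median was highest in cerebellum, where libraries ranged from 16.1 to 22.5 CPM. The cortex library of mouse 7267058 was far above the rest (294 CPM, the next 104). That library also had the highest sum of hippocampus markers (991 CPM, cortex median 687). Fibcd1 was at 82.3 CPM there, against at most 19.1 in the other cortex libraries. Members of the list differed, as Prox1 was lowest in that library (8.89 CPM, cortex median 11.4) and Wfs1 was not highest in it. The part of these markers in the Nov values was not tested. Against the mean Nov differed by 3.29 (SE 0.411, FDR 9.69e-07). Mas1 (chr17:12838841-12868150, minus strand), a receptor for angiotensin fragments, measured 14.4, 19.1 and 40 CPM in cortex. Only the striatum library of mouse 9083375 (17.4 CPM) overlapped with it, and brainstem libraries held at most 1.91 CPM. The difference was 2.91 (SE 0.221, FDR 1.59e-09).

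E130012A19Rik (Epop in RefSeq; chr11:97627387-97629716, minus strand) encodes a nuclear protein associated with Polycomb and elongin complexes. It measured 12.8, 43.5 and 86.6 CPM in cortex and up to 28.2 CPM in striatum, so these groups overlapped, while brainstem and cerebellum stayed at or below 7.98 CPM. Its difference from the mean was 2.91 (SE 0.308, FDR 1.11e-07). 3110035E14Rik (Vxn in RefSeq; chr1:9601267-9627142, plus strand) measured 60.3, 300 and 532 CPM in cortex. Brainstem reached 67.9 CPM and striatum 275 CPM, both within the cortex range. The difference was 2.95 (SE 0.374, FDR 1.18e-06). Its exons overlap an antisense gene, 2610203C22Rik, and reads were counted without strand, so its level is uncertain.

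Nptxr (chr15:79786351-79804709, minus strand), the neuronal pentraxin receptor gene, varied widely between mice. It measured 0.498, 28.1 and 59.6 CPM in cortex. In mice 7267055, 7267058 and 7267059 it lay between 0.0471 and 1.43 CPM in every library except cortex of mouse 7267058, which had 25 CPM. In the other 5 mice it lay between 2.04 and 59.6 CPM, and in each of them cortex was above the other 3 regions. Its log2 difference from the mean was 2.45 (SE 0.444, FDR 7.74e-05), and 1.88 without mouse 7267058. It did not count as highest without the block for the mouse, with limma voom and a random block, with at least 10 counts in every library, or in the mice of the series of 7267055. Its exons overlap those of Npcd on the same strand, which makes the level uncertain.

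**Figure D3:**
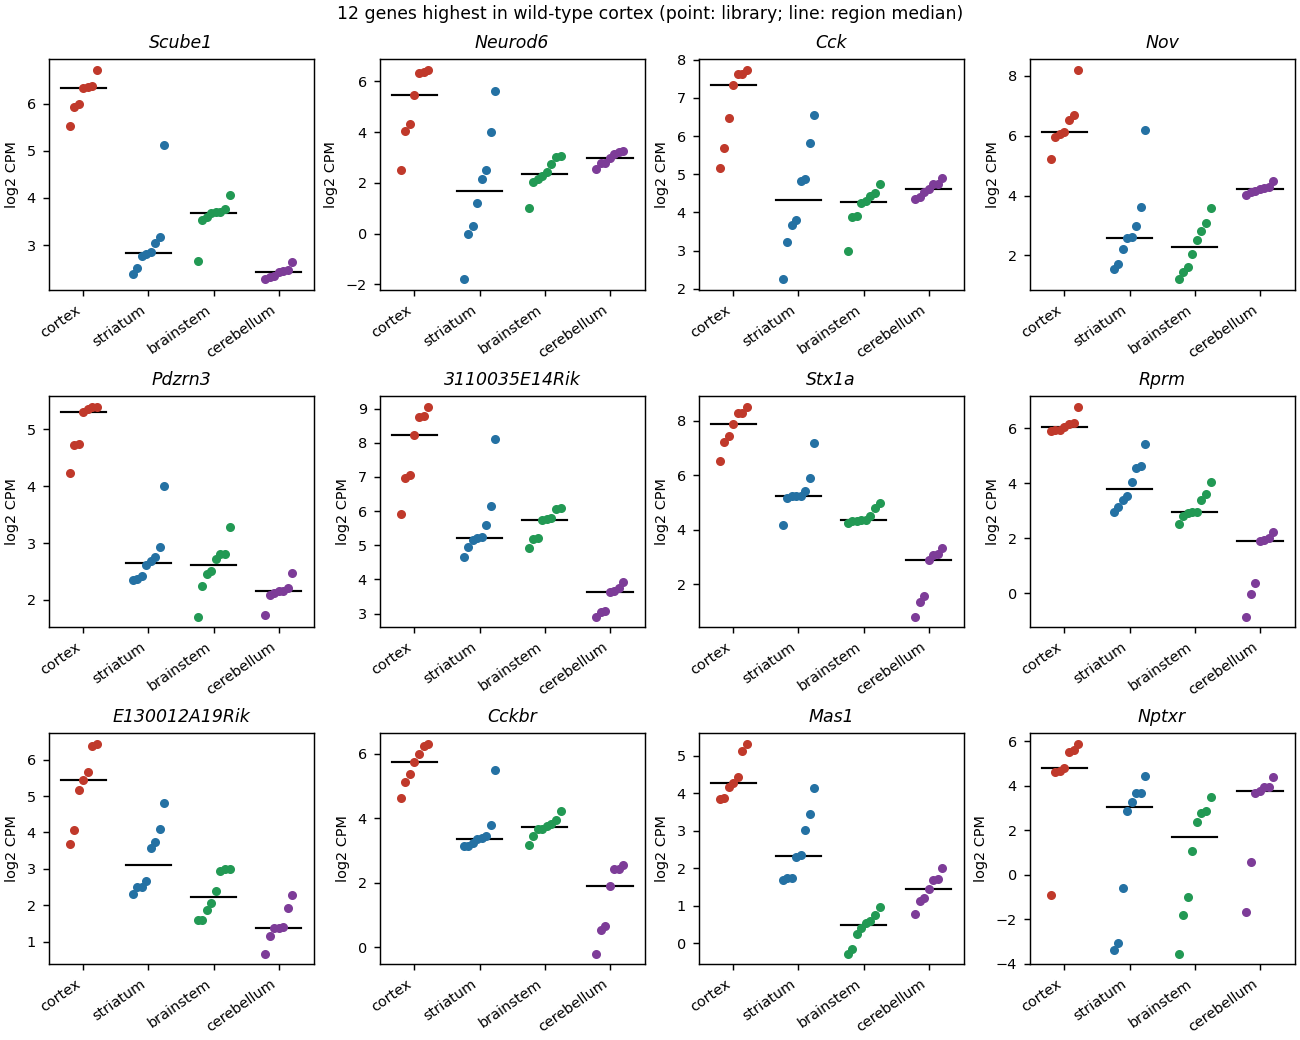
Log2 CPM of the 12 genes with the largest smallest difference among those highest in cortex, by region (each point a library, each line a region median, vertical scales differ). Scube1, Pdzrn3 and Rprm show no overlap between cortex and the other regions, the striatum library of mouse 9083375 is the point nearest to cortex for most genes, and Nptxr spreads over a wide range in each region.

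Of the remaining highest genes a few are described, and 13 of all 52 were in any of the gene lists used below. Slc30a3, the vesicular zinc transporter of cortical glutamatergic terminals, differed by 3.78 from striatum, 4.56 from cerebellum and 1.65 from brainstem. Kcnv1, a modifying subunit of voltage-gated potassium channels, differed by 7.12 from cerebellum, 4.54 from brainstem and 1.03 from striatum. Kcnv1 kept its class in 12 of the 23 alternatives. The G protein coupled receptor genes Sstr2 (somatostatin receptor) and Npy1r (neuropeptide Y receptor) were among the fully separated genes, with smallest differences of 1.40 and 1.11. Mef2c, a transcription factor that acts in projection neurons and in their response to activity, measured 217, 441 and 744 CPM in cortex and 106, 163 and 340 CPM in striatum, with a smallest difference of 1.41.

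The genes lowest in cortex were fewer and mostly low in absolute level there. Mob3b (chr4:34949074-35157524, minus strand), of the MOB family of kinase activators, measured 5.96, 7.38 and 9.74 CPM in cortex. It measured 15.3, 21 and 29 CPM in striatum, 15.4, 34.5 and 42.5 in brainstem, and 19.9, 23 and 27.9 in cerebellum. All cortex libraries were below all others. The difference from the mean was -1.68 (SE 0.18, FDR 1.3e-07), and the 3 pairwise differences lay between -2.001 and -1.49.

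St18 (chr1:6487231-6860940, plus strand), a zinc finger transcription factor, measured 8.62, 11.7 and 15.8 CPM in cortex. Striatum held 19.5, 27 and 40.6 CPM, brainstem 25.3, 37.4 and 40, and cerebellum 114, 135 and 165. The groups did not overlap, with the widest gap to cerebellum (-3.49, SE 0.143). Against the mean it differed by -2.07 (SE 0.121, FDR 4.26e-11), the smallest FDR of the lowest genes named here.

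En2 (chr5:28165696-28172190, plus strand), a homeobox gene of the midbrain and hindbrain, measured 0.512, 1.3 and 1.64 CPM in cortex and 98, 135 and 180 CPM in cerebellum. Striatum was close to cortex at 1.42, 2.35 and 3.77 CPM, and these groups overlapped. Brainstem held 3.22, 5.66 and 30.4 CPM, the highest value belonging to mouse 9083373. Its log2 difference from the mean was -3.60 (SE 0.374, FDR 8.53e-08), from -6.80 against cerebellum to -1.18 against striatum (FDR 0.0276). En2 kept its class in 16 of 23 alternatives.

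Klk6 (chr7:43824438-43832027, plus strand), a serine protease made by oligodendrocytes, measured 1.33, 4.6 and 6.79 CPM in cortex and 19.2, 74.7 and 91.8 CPM in brainstem. It overlapped with striatum, which held 5.87, 10.5 and 33.5 CPM. The difference from the mean was -2.28 (SE 0.343, FDR 9.42e-06). The summed mature oligodendrocyte markers were also highest in brainstem (12031 to 24750 CPM, against 3072 to 6356 CPM in cortex), and their part in this difference was not tested. Wnt3 (chr11:103774175-103818021, plus strand), a secreted WNT ligand, measured 0.964, 1.85 and 2.62 CPM in cortex and 17, 18.8 and 22.8 CPM in cerebellum. Its striatum values of 2.51, 3.46 and 23.2 CPM touched the cortex range. The difference was -2.44 (SE 0.367, FDR 9.34e-06). In striatum Klk6, Wnt3 and Gm19461 were each highest in mouse 7267059, the library with the highest thalamus and oligodendrocyte marker sums. Without that library and striatum of 7267058, Wnt3, Gm19461 and En2 no longer counted as lowest, and En2 was in striatum also highest in mouse 7267059 (3.77 CPM).

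Vwa7 (chr17:35016360-35026741, plus strand), a protein with a von Willebrand factor A domain, measured 0.603, 2.06 and 2.53 CPM in cortex and 23.8, 30.2 and 56.5 CPM in cerebellum. It overlapped with striatum (1.19, 4.48 and 7.82 CPM), and its difference from the mean was -3.08 (SE 0.337, FDR 1.7e-07). The predicted noncoding gene Gm19461 (chr1:133249852-133269808, minus strand) measured 1.63, 2.24 and 3.58 CPM in cortex and 10.3, 12.1 and 14.1 CPM in cerebellum, with a difference of -1.89 (SE 0.301, FDR 1.87e-05). Vwa7 lies antisense to Sapcd1 and Gm19461 to Plekha6 over part of their exons, so that counts without strand leave their levels uncertain. Unc13c (chr9:73479422-74008155, minus strand), which primes synaptic vesicles for release, was the most abundant of the 8. It measured 46.9, 76 and 162 CPM in cortex and 262, 362 and 442 CPM in brainstem, overlapping with striatum (104 to 500 CPM). Its difference from the mean was -1.46 (SE 0.269, FDR 8.99e-05).

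**Figure D4:**
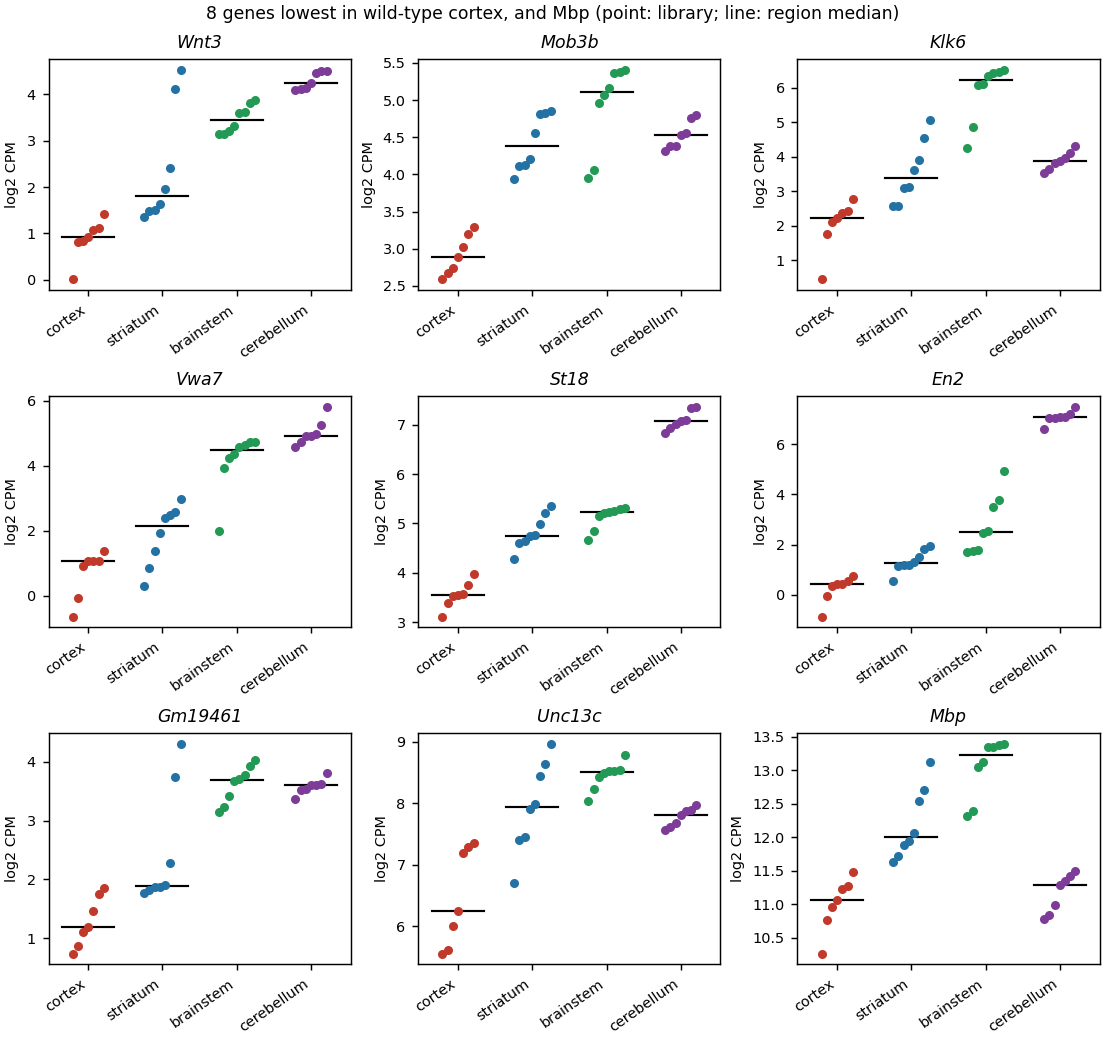
Log2 CPM of 8 genes lowest in cortex and of the myelin gene Mbp by region (each point a library, each line a region median, vertical scales differ). Cortex lies below all other libraries for Mob3b and St18, overlaps with striatum for the other 6 genes, and overlaps with cerebellum for Mbp.

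Vesicular glutamate transporter genes had different levels in the regions, with some overlap between libraries. RefSeq gives Slc17a7 and Slc17a6 exon lengths of 5392 and 5399 bases, so the genes can be compared per kilobase. Slc17a7 measured 66.3, 224 and 302 CPM per kilobase in cortex, and Slc17a6 measured 2.92, 5.96 and 27.9. In brainstem the order was reversed, with 1.77, 11.8 and 36.9 for Slc17a7 and 49.6, 64.6 and 75.4 for Slc17a6. Slc17a7 was higher in cortex than the mean by 2.83 (SE 0.442, FDR 1.49e-05), and by 3.41 without the 3 libraries that stood apart, an increase fixed by the choice of libraries on this gene. Its level in cerebellum, where granule cells use the same transporter, was 283, 324 and 497 CPM and overlapped with that of cortex library 9083371, with a difference of 1.46 (SE 0.59, FDR 0.0319). Slc17a6 was lower than in brainstem by 2.63 on the log2 scale (FDR 0.00591) and did not differ detectably from the mean (-0.95, SE 0.682, FDR 0.24).

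Transcription factors of cortical projection neurons were mostly higher in cortex than the mean. Of 24 analysed members 17 were called higher and 2 lower, with a median difference of 0.80, where 30.2% and 28.8% of all genes were called. Neurod6 and Mef2c (2.76) led, followed by Bcl11b (2.34), a factor shared by deep layer and striatal projection neurons, and by Nr4a2 (1.87). Etv1 (-1.11) and Zfpm2 (-0.86) were called lower, and both differed most from cerebellum (-2.54 and -2.40). Against striatum 10 were higher and 4 lower, where 16.9% and 16.2% of all genes were, so that the share of lower members was near that of all genes. Foxp1 (-1.09), Pou3f1 (-1.02), Tle4 (-0.59) and Pou3f3 (-0.36) were the lower ones, whereas Neurod2 (3.19), Bhlhe22 (2.70) and Nr4a2 (2.36) were higher. Neurod2 was not called against cerebellum (-1.16), where granule cells express it.

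Factors that pattern the early brain were counted in a forebrain list and a list of hindbrain and cerebellum, which were not tested against each other. Of all genes 30.2% were higher and 28.8% lower than the mean. Of 6 analysed forebrain factors 3 were higher than the mean (Lhx2 2.82, Nr2f1 0.96 and Meis2 0.92) and Pax6, which cerebellar granule cells retain, was lower (-1.06, and -3.13 against cerebellum). Meis2 was lower than in striatum (FDR 0.0298), and Six3 and Nr2f2 were not called. All 6 analysed hindbrain and cerebellum factors were lower, with a median of -1.59. They were En2, Zic1 (-2.29), Zic2 (-1.59), Meis1 (-1.59), Zic4 (-1.44) and Gata2 (-0.51). Zic1 and Zic4 were also lower than in striatum (-1.97 and -1.74). Against brainstem En2, Meis1 and Gata2 were lower. Zic1 (-0.46, FDR 0.434), Zic2 (0.15, FDR 0.797) and Zic4 (0.19, FDR 0.772) were not called against brainstem. Another 30 members, among them the Hox genes of the list, were not analysed here.

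Markers of the cortical layers were counted layer by layer, and the layers were not tested against each other. Of all genes 30.2% were higher and 28.8% lower than the mean. Of 15 upper layer markers 11 were higher than the mean and 2 lower, with a median of 0.97. Cux2, a homeobox gene of upper layers, measured 42.6, 76.5 and 99.7 CPM in cortex and differed by 0.97 (SE 0.165, FDR 3.78e-05), and by 1.33 from striatum. In the mice of the series of 7267055 it differed by 0.46 from the mean and did not pass edgeR's test (adjusted p = 0.398). Otof had the widest spread between cortex libraries in this list, from 34 to 166 CPM. Layer 6 and subplate markers were higher for 8 of 14 and lower for 2 (median 0.57), led by Rprm (3.21), and the subplate genes Nr4a2 and Ctgf were among them (1.87 and 1.62).

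Layer 5 markers gave 6 higher and 3 lower of 16 (median 0.31). The neurofilament gene Nefh, abundant in large brainstem neurons, was lowest in that list (-1.26, and -2.87 against brainstem). Layer 4 markers gave 2 higher and 2 lower of 6 (median -0.30). The shares of both lists are not far from those of all genes (30.2% and 28.8%). Rorb, a nuclear receptor of layer 4, measured 24.5, 38.3 and 74.1 CPM in cortex and was higher than the mean by 0.77 (SE 0.206, FDR 0.00299), a value of 0.19 in the mice of the series of 7267055 (adjusted p = 0.787). This was carried by cerebellum (1.61), with differences of 0.38 from brainstem (FDR 0.197) and 0.32 from striatum (FDR 0.355). Foxp2 measured 12.5, 30.9 and 54.6 CPM in cortex, close to the mean of the other regions (0.04, SE 0.297, FDR 0.921), below striatum in its median (56.9 CPM) and above cerebellum (0.96, FDR 0.0259).

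Of 24 analysed interneuron genes, 8 were higher than the mean and 6 lower, with a median of -0.04. These shares are near those of all genes (30.2% and 28.8%). Sst, somatostatin, was even across cortex libraries (144 to 205 CPM) and differed by 1.88 from the mean (SE 0.341, FDR 7.74e-05) and by 0.35 from striatum (FDR 0.56). Npy, neuropeptide Y, measured 25, 42.1 and 58.9 CPM and differed by 1.80 (SE 0.249, FDR 3.41e-06). Pvalb, parvalbumin, which Purkinje cells and many brainstem neurons also make, measured 9.62, 17.5 and 70.9 CPM in cortex and 406 to 539 CPM in cerebellum. It was lower than the mean by 2.12 on the log2 scale (SE 0.515, FDR 0.00137) and did not differ detectably from striatum (-0.12, FDR 0.902). Gad1, an enzyme of GABA synthesis, was at 341, 507 and 680 CPM in cortex, between brainstem (median 243) and striatum (median 764), with a difference of -0.03 from the mean (SE 0.147, FDR 0.866). Vip was not analysed here.

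Genes of glutamate release and postsynaptic plasticity were nearly all higher in cortex. Of 29 members 27 were higher than the mean and 0 lower, with a median of 1.19, where 30.2% and 28.8% of all genes were. The leading members were Icam5 (3.67), a dendritic adhesion molecule of forebrain neurons, Ptk2b (3.40), a calcium-responsive kinase, Nrgn (2.97), which binds calmodulin, and Camk2a. Camk2a measured 1894, 3491 and 4675 CPM in cortex, 1135, 1800 and 2860 CPM in striatum and at most 367 CPM in the other regions. Its difference was 2.94 from the mean (SE 0.185, FDR 1.23e-10) and 0.82 from striatum (SE 0.236, FDR 0.0108), where the groups overlapped. Against striatum 9 of the 29 were higher and 0 lower, with a median of 0.18 (7 higher and 3 lower without the striatum libraries high in thalamus markers). Against brainstem 28 were higher and 1 lower (34.6% and 31.3% of all genes), and against cerebellum 24 and 1 (35.4% and 34.4%). Of all genes 16.9% were higher and 16.2% lower than in striatum.

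Of 25 receptors for glutamate 13 were higher than the mean and 6 lower (median 0.34), where 30.2% and 28.8% of all genes were. Grin2b, the forebrain NMDA receptor subunit, led with 2.00, and Grin2c, abundant in granule cells, was lower (-0.63, and -2.74 against cerebellum). GABA and glycine receptors gave 9 higher and 2 lower of 17 (median 0.47). Glra1, the glycine receptor subunit of brainstem and spinal cord, was lowest (-2.44, and -5.60 against brainstem), and Gabra3 (1.13) and Gabra5 (1.09) led.

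Monoamine and acetylcholine receptors were higher than the mean for 12 of 21 and lower for 1 (median 0.84), where 30.2% and 28.8% of all genes were. Chrm1, the main muscarinic receptor of forebrain neurons, measured 115, 186 and 263 CPM in cortex and at most 7.19 CPM in brainstem and 2.81 CPM in cerebellum (difference from the mean 4.32). It did not pass the test against striatum (0.58). Adrb1 (1.94), Chrm3 (1.73) and the serotonin receptor gene Htr2a (1.51) were higher than the mean and than striatum (0.68, 1.04 and 0.69). Drd1 (3.52) and Drd2 (0.93) were above the mean and below striatum (-1.45 and -1.72). Htr1b was lower (-0.40, and -1.40 against striatum).

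Neuropeptides and related secreted factors were higher than the mean for 10 of 17 and lower for 0 (median 1.08), where 30.2% and 28.8% of all genes were. Pdyn (2.92) led, which encodes the dynorphin precursor of striatal neurons, followed by Cck, Cartpt (1.89), Sst and Npy. Of these, Cck was also higher than in striatum (2.29). Pdyn (-0.40, FDR 0.485), Cartpt (0.68, FDR 0.468), Sst (0.35, FDR 0.56) and Npy (0.68, FDR 0.0973) did not pass the test against striatum. Cartpt was higher than in cerebellum (4.51) and was not called against brainstem (0.47, FDR 0.536). Penk, above the mean (0.69), was lower than in striatum (-1.13, FDR 0.00717). Bdnf, a neurotrophin, differed by 2.29 from striatum, where it was 3.05, 4.86 and 13.5 CPM against 11.2, 28.7 and 35.2 CPM in cortex. It did not pass the test against brainstem (0.45) or cerebellum (0.49).

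Activity-induced genes were higher for 24 of 34 and lower for 2 against the mean (median 1.09), where 30.2% and 28.8% of all genes were. Against brainstem 27 were higher and 1 lower (34.6% and 31.3% of all genes), and against cerebellum 18 and 2 (35.4% and 34.4%). Against striatum 6 were higher and 1 lower (10 and 1 without the 3 libraries that stood apart), where 16.9% of all genes were higher and 16.2% lower. Egr3, an immediate early transcription factor, measured 74.3, 128 and 263 CPM in cortex and 47.1, 153 and 257 CPM in striatum, and at most 8.43 CPM in the other regions (difference from the mean 3.80). Arc, an immediate early gene of dendrites, was the member with the widest spread between cortex libraries, at 44.3, 95.1 and 565 CPM. Its difference from the mean was 1.56 (SE 0.282, FDR 7.54e-05), and 0.35 in the mice of the series of 7267055 (adjusted p = 0.485). Its striatum values (57.4, 123 and 196 CPM) overlapped with those of cortex. Fos measured 13.9, 25 and 63.5 CPM in cortex and did not differ detectably from the mean (0.20, SE 0.216, FDR 0.448). Dusp5 was lower than the mean (-0.78), below cerebellum (-3.41) and above brainstem (1.14).

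Ion channels showed some of the widest differences. Of 35 voltage-gated potassium and HCN channel genes 20 were higher than the mean and 7 lower (median 0.61), beside 30.2% and 28.8% of all genes. Kcnh3 measured 84.7, 180 and 230 CPM in cortex, 47.3, 107 and 212 CPM in striatum and at most 3.19 CPM in the other regions, a difference of 4.40 from the mean. Kcnv1 (4.23), Kcnf1 (3.45) and Kcnh4 (3.20) followed. Kcna1 (-0.68) and Kcnc1 (-0.57), subunits of fast firing neurons, were among the lower ones. Against striatum 7 were higher and 2 lower (11 and 3 without the 3 libraries that stood apart), where 16.9% and 16.2% of all genes were. Sodium and calcium channel genes gave 14 higher and 4 lower than the mean of 30 (median 0.26), from Cacng3 (1.95) to Cacna2d2 (-0.70).

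Axon guidance and cell adhesion genes gave 33 higher and 16 lower than the mean of 69 (median 0.31), beside 30.2% and 28.8% of all genes. Robo3 (2.76) led and also varied most between cortex libraries, from 6.75 to 105 CPM. Plxnd1 (1.75), Ntng2 (1.56) and Cdh9 (1.49) followed, and the netrin receptor gene Unc5b was lowest (-1.31). Perineuronal net and matrix genes gave 4 higher and 5 lower of 15 (median -0.21), shares near the 30.2% and 28.8% of all genes, with Ncan highest (1.69) and Adamts4, a protease found in oligodendrocytes, lowest (-1.22).

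Glia and vessel markers showed which other cell types moved with the region. Of 20 mature oligodendrocyte markers 17 were lower in cortex than the mean and 0 higher (median -0.98), and 20 of 20 were lower than in brainstem and in striatum. Of all genes 28.8% were lower than the mean, 31.3% than brainstem and 16.2% than striatum. Mbp, a main protein of myelin, measured 1227, 2133 and 2848 CPM in cortex, 5074, 9659 and 10777 CPM in brainstem and 3176, 4104 and 8962 CPM in striatum. Cortex lay below both, and among the cerebellum libraries (1750, 2488 and 2882 CPM). Its difference from the mean was -1.08 (SE 0.197, FDR 8.29e-05). Against cerebellum 5 markers of the list were higher and 2 lower (35.4% and 34.4% of all genes).

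Astrocyte markers were lower than the mean for 12 of 22 and higher for 4 (median -0.23), where 28.8% and 30.2% of all genes were. Against striatum 3 were lower and 1 higher, and 16.2% and 16.9% of all genes were. Gfap, an intermediate filament of astrocytes, measured 121, 166 and 283 CPM in cortex and 280, 997 and 2177 CPM in brainstem. It was lower than the mean by 0.75 on the log2 scale (SE 0.254, FDR 0.0155), carried by brainstem (-2.19), and did not pass the test under 3 alternatives by edgeR. These were without mouse 9082857 (-0.67, adjusted p = 0.0534), in the number series of 9083371 alone (-0.78, adjusted p = 0.051) and in that of 7267055 alone (-0.42, adjusted p = 0.596). Lhx2 (2.82) and Chrdl1 (1.40) were the higher members of that list, together with Mfge8 (1.30) and Slc1a2 (0.71).

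Microglia markers were higher for 7 of 14 and lower for 0 (median 0.23). All 14 were higher than in cerebellum (median 1.00) and 0 higher than in striatum, where 35.4% and 16.9% of all genes were. Oligodendrocyte precursor markers gave 5 higher and 2 lower of 11. Endothelium markers gave 0 higher and 1 lower of 11 (median 0.05). Markers of leptomeninges gave 4 higher and 1 lower of 10 (2 and 1 without the 3 libraries that stood apart). Of these 10 markers 8 were higher than in striatum, where 16.9% of all genes were. Choroid plexus markers gave 0 calls of 5. Markers of neurons in general gave 5 higher and 1 lower of 14 (median 0.09). Of all genes 30.2% were higher and 28.8% lower than the mean, and the shares of higher markers of precursors, leptomeninges and neurons in general were not far from that.

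Markers of cerebellar neurons were mostly lower in cortex than the mean, with 7 of 9 for granule cells (1 higher, Slc17a7) and 9 of 11 for Purkinje cells. For thalamus 4 of 12 were lower, a share near the 28.8% of all genes, and for brainstem neurons 4 of 8. Hippocampus markers gave 5 higher and 2 lower of 10, where 30.2% and 28.8% of all genes were. Ribosomal protein genes gave 8 higher and 2 lower of 45, both below those shares, with a median of 0.03.

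The cortex libraries also differed among themselves in genes that set cortex apart. Neurod6 measured 16.4, 88.2, 79.6, 5.69, 19.9, 82.1 and 43.5 CPM in the cortex libraries of mice 7267055, 7267058, 9082857, 9083371, 9083372, 9083373 and 9083375. Slc17a7 measured 583, 1629, 1211, 357, 743, 1280 and 1208 CPM in the same order. Mice 9083371, 7267055 and 9083372 were the lowest for both genes. Drd1, a striatal marker, measured 52.3, 25.2, 72.5, 111, 93.5, 68 and 121 CPM in that order and did not follow them in each library, being lowest in mouse 7267058 and highest in mouse 9083375. Unc13c, lower in cortex than elsewhere, measured 156, 48.8, 63.9, 146, 162, 46.9 and 76 CPM, and was highest in the same 3 mice in which Neurod6 was lowest. Markers of brainstem neurons followed the same 3 mice, summing to 275, 197 and 199 CPM in mice 7267055, 9083371 and 9083372 and to 50.3 to 72.6 CPM in the other cortex libraries. Thalamus markers summed to 517, 429 and 370 CPM in these mice and to 227 to 276 CPM in the others. Slc17a6, a member of both lists and the transporter of brainstem and thalamic neurons, measured 151, 75.9 and 74.8 CPM there and 15.8 to 32.2 CPM in the others. The part of these markers in the differences between cortex libraries was not tested.

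The same contrast was read in the 23 libraries of the 6 SCA3 mice, which took no part in choosing the genes. There 3669 genes (29.7%) were higher in cortex than the mean of the other regions and 3396 (27.4%) lower. Of the 12 highest genes named by size, 12 were called higher, with differences from 2.00 for Nptxr to 3.53 for Stx1a. Scube1 differed by 2.98 (SE 0.28, FDR 2.46e-07) and Neurod6 by 2.69 (SE 0.593, FDR 0.00106). Of the 8 lowest genes, 8 were called lower, from -3.67 for En2 to -0.93 for Mob3b. The difference between genotypes in the size of this contrast was called for 0 of 12372 genes (0%) by edgeR's quasi-likelihood test, with 173 at an unadjusted p below 0.05. Among the 20 genes the widest genotype difference was 0.75 for Mob3b (SE 0.258, unadjusted p = 0.00613, adjusted p = 1).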

How the data were processed

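RNA was poly-A selected and sequenced without strand information. According to the study's methods, the authors trimmed the paired reads with cutadapt 1.10, aligned them to GRCm38 with STAR 2.3.0e keeping unique alignments, and counted them per RefSeq gene with HTSeq 0.6.1 without strand. The deposited values were raw read counts of 12372 genes in 53 libraries, left after the authors' minimum of 4 CPM on average (the lowest mean was 4.07 CPM), with 0 rows that name no gene. Counting without strand cannot separate genes that overlap in antisense, and unique alignment drops reads that fit near-identical genes. Groups and mouse numbers came from the sample labels.

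Counts of the 30 wild-type libraries were fitted with edgeR 4.0.16 in R 4.3.3 (TMM scaling, quasi-likelihood F test, region plus mouse as a fixed block, 19 residual degrees of freedom), after tests on simulated data. Cortex was contrasted with the mean of the other 3 regions and with each region. CPM were taken over TMM-adjusted totals, and logs of them with a prior count of 2. SCA3 libraries were fitted alone, and the genotype difference in all 53 libraries. Genes named with values were the 12 highest and 8 lowest genes with the largest smallest pairwise difference and at least 10 CPM on average (in cortex, or over the other regions), and 15 of 19 anchor genes. Tbr1, Fezf2 and Vip were among those not analysed here. Some items are not reported here. List members were named mainly by size of difference or by spread over the cortex libraries. Other members, and genes named among the 52 and 14, were chosen after their values were seen. The members and lists were chosen with earlier results of these data known. Positions and promoters are from RefSeq on GRCm38.p6. All 34 named genes matched, 3 by synonym.

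Libraries of a mouse come from the same animal, which pairs them. The correlation of 2 libraries of a mouse in their deviations from the region means averaged 0.107 to 0.204 over the 6 pairs of regions (single mice from -0.39 to 0.463). Alternatives were no block, the likelihood ratio test, DESeq2 1.42.0, limma 3.58.1 voom with a random block (correlation 0.141), RLE or no scaling, a minimum of 10 counts, RIN as a covariate or at least 7, leaving out 2 striatum libraries high in thalamus markers, other log2 limits, and leaving out each mouse. The fits without 1 or 3 libraries that stood apart, and those of mice of 1 number series, were added after the data were seen.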

Additional observations from a re-analysis of the deposited data

Results flagged for a closer look

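In groups of 7 or 8 libraries, the highest or lowest library was flagged when its gap to the next took an unusually large share of the group's range. Of 136 gene and region groups 13 were flagged, and chance flags about 1 in 20 groups. In striatum, the library of mouse 9083375 was flagged as highest for Scube1 (34.8 CPM, the next 8.93), Neurod6 (49, next 16.2), Nov (72.9, next 12.4), Pdzrn3 (16, next 7.58), 3110035E14Rik (275, next 70.8), Stx1a (143, next 59.8), Cckbr (45.2, next 13.7) and Slc17a7 (597, next 208). In cortex, mouse 7267058 was flagged as highest for Nov (294 CPM, next 104) and Rprm (110, next 73.7). In brainstem, mouse 9083373 was flagged as highest for En2 (30.4 CPM, next 13.7). Gfap was flagged as lowest in cerebellum of mouse 9083375 (145 CPM, next 194) and as highest in striatum of mouse 7267059 (735 CPM, next 318).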

How the results depend on the processing

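Without the block for the mouse, 7107 genes were called against the mean, 7844 against brainstem, 8370 against cerebellum and 3784 against striatum. There were then 56 genes highest and 23 lowest in cortex, 13 of the latter shared with the 14 of the blocked fit. Leaving out the block changed no call of a named gene against the mean. The lowest genes also numbered 7 with a RIN of at least 7, 7 without the libraries high in thalamus markers and 22 without the 3 libraries that stood apart. A limit of 2 log2 units left 8 highest and 0 lowest genes, and no limit gave 747 and 538. The 4 mice of the number series of 9083371 alone gave 1061 genes against striatum, 10 highest and 3 lowest. The 3 mice of the series of 7267055 alone, 2 of them with a cortex library, gave 1575 against the mean, 1883, 3791 and 104 against brainstem, cerebellum and striatum, and 22 highest and 6 lowest, with fewer samples in these fits. Fits that left out a mouse in turn, or striatum of mouse 9083375 or cortex of mouse 9083371 alone, were read together. They gave 6502 to 7535 genes against the mean, and 7547 to 8297, 7980 to 8702 and 2832 to 4539 against brainstem, cerebellum and striatum. Highest genes numbered 34 to 71 and lowest genes 6 to 20 in them (34 and 6 without mouse 7267058). Of the alternatives for the 34 named genes, 751 kept direction and side of the threshold, 16 kept direction only and 14 changed sign. The sign changes concerned 2 genes that did not pass the test. Foxp2 was 0.00 without the block, -0.0187 with library totals, -0.1376 without cortex of mouse 9083371, -0.0583 without the 3 libraries, -0.8254 in the series of 7267055, and -0.1423, -0.0509 and -0.1159 without mice 9083371, 9083372 and 9083375, and at most 0.1857 where a library or mouse was left out (without mouse 7267058). Over all alternatives its highest value was 0.4914, in the series of 9083371. Gad1 was 0.0132 with a RIN of at least 7, 0.0079 without libraries high in thalamus markers, 0.122 in the series of 9083371, and 0.0264, 0.0279 and 9e-04 without mice 7267055, 7267058 and 9083373, and at least -0.1473 where a library or mouse was left out (without cortex of mouse 9083371). Over all alternatives its lowest value was -0.4349, in the series of 7267055. The cause of these changes was not tested. Genes at a few CPM rest on fewer counts and are less precise.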
